A study of Mus musculus with 8 samples.

Results

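The genes described here are 10 genes of osteoclast fusion and bone resorption, Acp5, Ctsk, Dcstamp, Ocstamp, Atp6v0d2, Oscar, Car2, Itgb3, Nfatc1 and Tnfrsf11a, among the 27179 genes measured by RNA-seq in 8 mouse tumors. They were selected on these same tumors, because Acp5 and Ctsk were seen to be much higher in 1 group, so their differences between the groups are given as a description, without p-values. Where a member is said to have been called at the threshold used for all genes, this too is a description, since the same values chose the members. All 10 genes were found by symbol, and all 10 passed the filter on low values of at least 1 CPM (read counts per library size of 1000000) in at least 4 of the 8 tumors. Dcstamp and Oscar reached 1 CPM only in the 4 cxC26 IL6KOs1 tumors, so they passed through the group in which they are high.

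The tumors grew under the skin of male CD2F1 mice from C26 cells, a mouse colon carcinoma line whose cxC26 form causes cachexia, a wasting of fat and muscle. The cxC26 scr cells carried a scrambled guide RNA, and the cxC26 IL6KOs1 cells came from 1 subclone whose gene for the cytokine IL-6 was disrupted with CRISPR/Cas9, so that effects of the knockout and of that subclone cannot be told apart. There were 4 tumors in each group. Hosts were kept until cachexia had developed, with more than 15% of body weight lost, so tumor age and group cannot be told apart either. In CD2F1 hosts kept to this endpoint, the paper injected more cells of this subclone than of cxC26 scr. The number injected for the sequenced tumors is not stated, and a difference in it could not be told apart from the group. The comparison asks how tumor gene expression differs when the tumor cells lack IL-6.

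Read totals on genes ranged from 14158989 to 17048062, and those of the groups overlapped. Il6 ranged from 326 to 438 reads in cxC26 scr and from 56 to 86 in cxC26 IL6KOs1, so its RNA was lower in every tumor of the knockout group. Among the 13262 genes tested with limma, 19.1% passed as higher and 20.7% as lower in cxC26 IL6KOs1 at an adjusted p-value under 0.05. In 17.8% of them every cxC26 IL6KOs1 tumor lay above every cxC26 scr tumor, and the median log2 difference was -0.0029. Shares of members below stand beside these values, and nothing is read from them.

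Osteoclasts are the cells that dissolve bone. They form when precursors of the monocyte and macrophage lineage receive M-CSF through CSF1R and RANKL through RANK, the product of Tnfrsf11a. Signals from RANK, together with calcium signals from receptors that pair with ITAM adaptors, of which OSCAR is an example, switch on NFATc1, and this factor drives genes for cell fusion (Dcstamp, Ocstamp), acid secretion (Atp6v0d2, Car2), attachment (Itgb3) and matrix digestion (Ctsk, Acp5). Macrophages and multinucleated giant cells in other tissues can also express several of these genes.

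The tumors grew away from bone, and osteoclasts were not identified in them by any other measurement analysed here. Calcr, the calcitonin receptor and a defining marker of mature osteoclasts, had 0 reads in all 4 controls and 0, 0, 8 and 2 in cxC26 IL6KOs1, which was too few to test. The genes are therefore called by their names rather than as a cell type. In bulk tumor RNA, fewer cells of a type and less RNA per cell cannot be told apart.

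Promoter sequences are shown because these genes are studied as joint targets of NFATc1 and PU.1. A link between these letters and the differences between the groups was not tested. RefSeq windows of GRCm38.p6 were at hand for 4 of the 10 members, Acp5, Ctsk, Oscar and Tnfrsf11a, and each is printed as the 250 bases before a transcription start, 5′ to 3′ on the strand of the gene. Capitals mark the core of an NFAT site, GGAAA, or the core of a PU.1 site, with the letters GAGGAA, or an AP-1 site, searched as TGANTCA, on either strand. No AP-1 match lay in any of the windows. Ctsk lies at chr3:95498960-95499209 on the forward strand, Oscar at chr7:3616158-3616407 on the reverse strand, the 2 Acp5 windows at chr9:22135747-22135996 and chr9:22130599-22130848 on the reverse strand, and Tnfrsf11a at chr1:105780473-105780722 on the forward strand.
Ctsk: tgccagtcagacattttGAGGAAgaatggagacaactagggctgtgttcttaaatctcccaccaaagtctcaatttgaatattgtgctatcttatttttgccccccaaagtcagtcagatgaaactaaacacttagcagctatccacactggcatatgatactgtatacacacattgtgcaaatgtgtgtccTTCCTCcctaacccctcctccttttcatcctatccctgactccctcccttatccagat
Oscar: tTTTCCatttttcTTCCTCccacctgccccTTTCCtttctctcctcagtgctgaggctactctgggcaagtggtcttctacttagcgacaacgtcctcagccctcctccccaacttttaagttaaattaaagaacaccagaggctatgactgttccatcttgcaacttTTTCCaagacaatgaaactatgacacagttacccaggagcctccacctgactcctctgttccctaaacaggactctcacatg
Acp5 outer start: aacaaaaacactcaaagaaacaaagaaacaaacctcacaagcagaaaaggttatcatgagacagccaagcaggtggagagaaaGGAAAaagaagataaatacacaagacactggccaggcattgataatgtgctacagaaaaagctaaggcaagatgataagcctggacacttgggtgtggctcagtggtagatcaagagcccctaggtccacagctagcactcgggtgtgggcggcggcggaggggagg
Acp5 inner start: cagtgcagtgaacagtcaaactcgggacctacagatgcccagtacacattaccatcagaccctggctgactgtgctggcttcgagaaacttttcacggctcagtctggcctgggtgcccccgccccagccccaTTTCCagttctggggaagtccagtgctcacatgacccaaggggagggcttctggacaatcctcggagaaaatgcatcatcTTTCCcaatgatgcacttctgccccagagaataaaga
Tnfrsf11a: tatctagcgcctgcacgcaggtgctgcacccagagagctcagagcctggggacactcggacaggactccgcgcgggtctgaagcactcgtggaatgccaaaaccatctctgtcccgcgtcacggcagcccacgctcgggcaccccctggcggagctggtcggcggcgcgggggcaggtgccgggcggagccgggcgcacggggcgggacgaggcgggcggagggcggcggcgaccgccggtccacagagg

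The Ctsk window held 2 PU.1 cores, 233 and 58 bases before the start, and 0 NFAT cores. The Oscar window held 3 NFAT cores and 1 PU.1 core. The outer and inner Acp5 windows held 1 and 2 NFAT cores, and a window between them, not shown, held 1. The Tnfrsf11a window held neither core. Short cores are common, since 55.6% of the 32817 RefSeq windows of this length held an NFAT core, 23.2% a PU.1 core and 6.75% an AP-1 site, so these matches are a description of the letters.

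The secreted enzymes were the members with the highest level per exon length in both groups. Acp5 encodes tartrate-resistant acid phosphatase, the enzyme stained to show osteoclasts, and lies on chromosome 9 from 22126727 to 22135746. Its reads numbered 216, 213, 286 and 335 in cxC26 scr and 3498, 1458, 4663 and 2599 in cxC26 IL6KOs1. The lowest tumor of the second group lay far above the highest of the first, by 2.27 on the log2 CPM scale. Mean log2 CPM was 4.05 ± 0.40 in cxC26 scr and 7.54 ± 0.62 in cxC26 IL6KOs1 (SD, n = 4 each), a log2 difference of 3.49 with a standard error of 0.275, or 11.2-fold. In the GENCODE annotation Acp5 overlaps 6530413G14Rik on the opposite strand. The library kit does not mark strand, so reads from the shared stretch cannot be told apart.

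Ctsk encodes cathepsin K, the protease that cuts bone collagen, and lies on chromosome 3 from 95499210 to 95509387. Reads were 566, 410, 353 and 399 in cxC26 scr and 4433, 2639, 6996 and 4568 in cxC26 IL6KOs1. The groups did not overlap, and the third cxC26 IL6KOs1 tumor was the highest for both enzymes while the second was the lowest. The log2 difference was 3.42 (SE 0.208), from 4.77 ± 0.21 to 8.19 ± 0.51 log2 CPM (SD, n = 4 each).

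Atp6v0d2 and Car2 serve acid secretion. Atp6v0d2 encodes a d subunit of the vacuolar proton pump that osteoclasts use and also takes part in fusion, and it lies on chromosome 4 from 19876838 to 19922566. In cxC26 scr it had 4, 29, 6 and 8 reads, against 326, 168, 365 and 303 in cxC26 IL6KOs1. The second cxC26 scr tumor stood above the other 3 of its group, and all 4 were far below the knockout group. At 4.97 (SE 0.476) this was the largest log2 difference of the 10 members and rank 10 among the 13262 tested genes. The summed reads, 47 against 1162, gave a ratio of rates of 25.6, with a 95% interval of 19.1 to 35.0 that covers counting error only.

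Car2 encodes carbonic anhydrase II, which supplies the protons, and lies on chromosome 3 from 14886269 to 14900770. Its reads numbered 36, 35, 29 and 21 in cxC26 scr and 133, 51, 106 and 88 in cxC26 IL6KOs1. These groups were also apart, by 0.76 on the log2 scale, with a log2 difference of 1.63 (SE 0.270).

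The fusion genes differed in size of effect. Dcstamp encodes DC-STAMP, a membrane protein needed for the fusion of osteoclasts and of macrophage giant cells, on chromosome 15 from 39745930 to 39760938. Reads were 8, 3, 4 and 1 in cxC26 scr and 133, 51, 121 and 98 in cxC26 IL6KOs1. It was thus close to undetected in the first group, where the SD was 1.01 log2 CPM. The log2 difference was 4.71 (SE 0.480) and depends on the offset used for low counts, so the ratio of summed reads, 16 against 403, is given as well. It was 26.1 (95% counting interval 15.9 to 46.1).

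Ocstamp encodes OC-STAMP, a related fusion protein, on chromosome 2 from 165395450 to 165400394. In cxC26 scr it had 23, 17, 27 and 27 reads, against 141, 44, 133 and 82 in cxC26 IL6KOs1. The groups were apart by 0.73, and the log2 difference of 2.00 (SE 0.330) was smaller than that of Dcstamp.

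**Figure D1:**
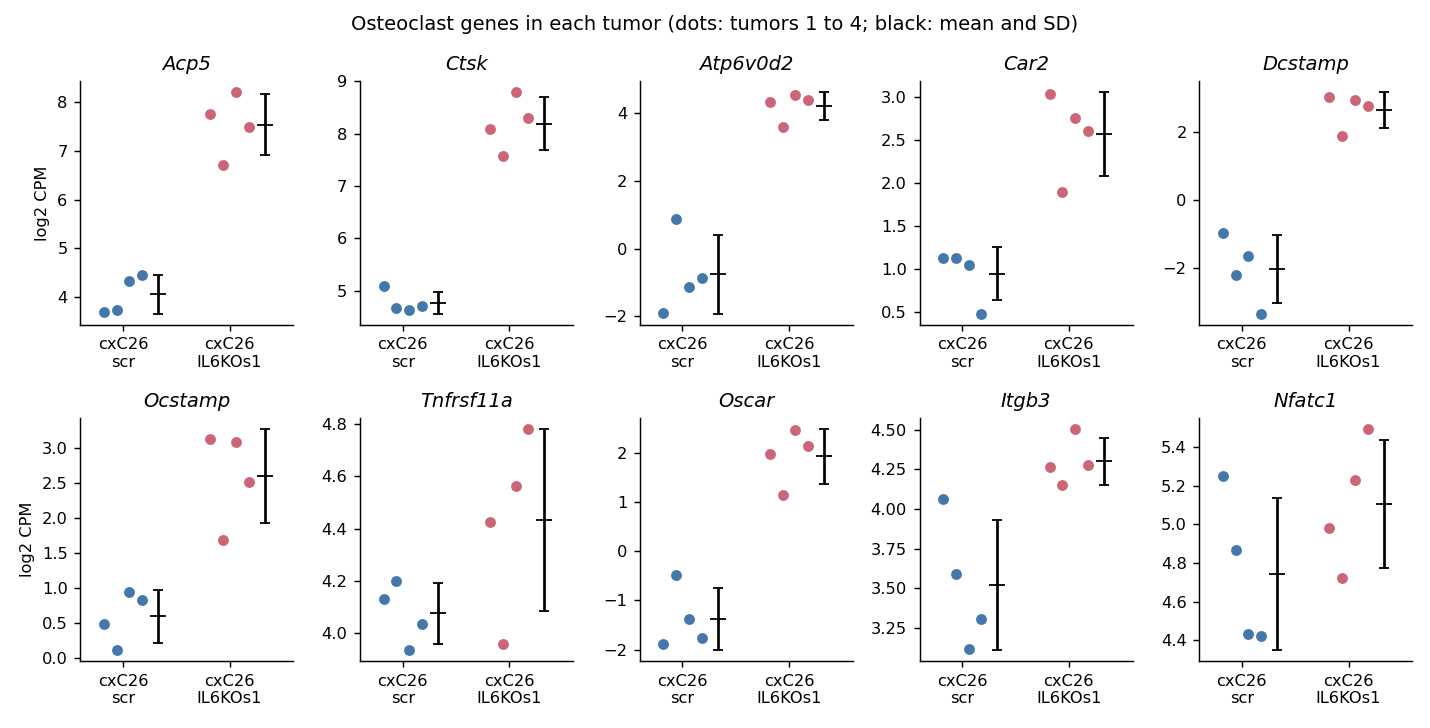
Log2 CPM of the 10 genes in each tumor, 1 panel per gene with its own vertical scale. Dots are the 4 cxC26 scr tumors (blue) and the 4 cxC26 IL6KOs1 tumors (red), from left to right replicates 1 to 4, and the black mark is the group mean with its SD. The groups are apart in 8 panels and overlap for Tnfrsf11a and Nfatc1.

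The surface receptors and the transcription factor were closer between the groups, apart from Oscar. Oscar encodes the osteoclast-associated receptor, which binds collagen and signals through the ITAM adaptor FcRγ, on chromosome 7 from 3609813 to 3616157. Its reads numbered 4, 11, 5 and 4 in cxC26 scr and 63, 30, 86 and 63 in cxC26 IL6KOs1. Among the receptors it had the largest difference, with a log2 difference of 3.31 (SE 0.397) and no overlap. The ratio of summed reads, 24 against 242, was 10.4 (95% counting interval 6.85 to 16.6).

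Itgb3 encodes the β3 chain of the vitronectin receptor, which seals the osteoclast to bone, on chromosome 11 from 104608000 to 104670476. Reads were 279, 194, 123 and 152 in cxC26 scr and 312, 246, 358 and 281 in cxC26 IL6KOs1. The groups were apart by only 0.087 on the log2 scale, since the first cxC26 scr tumor was close to the knockout group. The log2 difference was 0.78 (SE 0.187), but it was -0.16 when each tumor was scaled to its macrophage markers. Platelets also carry the β3 chain, and Itga2b, its platelet partner, differed by -0.06 (adjusted p = 0.783 from limma).

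Tnfrsf11a, which encodes RANK, lies on chromosome 1 from 105780673 to 105849444. In cxC26 scr it had 292, 297, 217 and 252 reads, against 349, 215, 372 and 398 in cxC26 IL6KOs1. The second cxC26 IL6KOs1 tumor lay among the control tumors, and the log2 difference was 0.36 (SE 0.162), which was not called. Without that tumor it was 0.51 and was called.

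Nfatc1, on chromosome 18, encodes the factor that directs osteoclast formation. Its reads numbered 634, 471, 307 and 330 in cxC26 scr and 512, 365, 590 and 652 in cxC26 IL6KOs1. The groups overlapped widely, and the log2 difference of 0.36 (SE 0.202) was not called. Without the first cxC26 scr tumor, the highest of its group, it was 0.53 and was called. Nfatc1 also overlaps an antisense gene in the annotation, AC123818.1, and reads from the shared stretch cannot be told apart, since the library kit does not mark strand.

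Counted together, 8 of the 10 genes were called higher, 0 were called lower, and the same 8 had groups that did not overlap, beside 19.1%, 20.7% and 17.8% of all tested genes. The median log2 difference of the 10 was 2.65, within a range of 0.36 to 4.97. The 5 largest, those of Atp6v0d2, Dcstamp, Acp5, Ctsk and Oscar, were all above 3, a size reached by 0.475% of the tested genes. With a pseudocount of 1 CPM, Dcstamp was at 2.53 and Oscar at 1.78, so this count depends on the offset for low values. The members were selected on these same values, and nothing is read from the share. The summed level of the 10 genes was 95.7 to 124 CPM in the cxC26 scr tumors and 381 to 875 CPM in the cxC26 IL6KOs1 tumors.

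**Figure D2:**
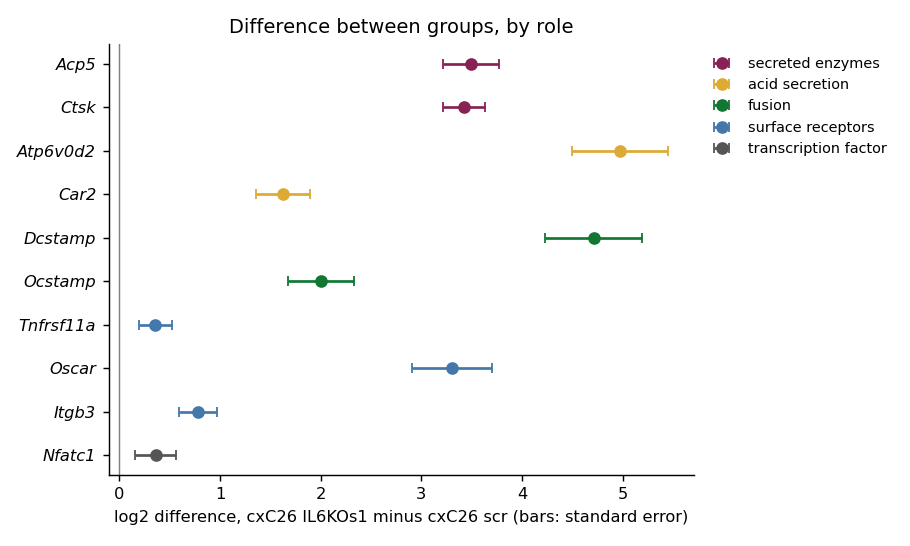
Log2 difference of each gene, cxC26 IL6KOs1 minus cxC26 scr, with its standard error from limma (4 tumors per group), coloured by the role of the gene. Differences run from 0.36 for Tnfrsf11a and Nfatc1 to 4.97 for Atp6v0d2, and among the 3 surface receptors only that of Oscar is above 3.

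Levels can be compared between genes only per length, here as CPM per kilobase of exon. In the cxC26 IL6KOs1 tumors the mean level was 202 ± 69.9 for Ctsk and 98.0 ± 39.0 for Acp5 (SD, n = 4). Their ranges overlapped, although Ctsk was above Acp5 in each of the 4 tumors. Atp6v0d2 followed at 7.03 ± 1.77, below every tumor's level of Acp5. The other 7 genes lay between 4.70 for Nfatc1 and 1.78 for Ocstamp, each overlapping its neighbour in the order.

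In the cxC26 scr tumors the order was different after the first members. Ctsk (18.2 ± 2.85) and Acp5 (8.39 ± 2.27) again came first, then Nfatc1 (3.69 ± 1.05), Tnfrsf11a (2.82 ± 0.23) and Itgb3 (2.01 ± 0.60), all in CPM per kilobase with SD and n = 4. Car2, Ocstamp, Atp6v0d2, Oscar and Dcstamp were all under 1, down to 0.107 ± 0.065 for Dcstamp. Nfatc1, Tnfrsf11a and Itgb3 were thus above Oscar and the fusion and acid genes in the control tumors. By its mean, Atp6v0d2 was at place 8 in cxC26 scr and place 3 in cxC26 IL6KOs1. Place 8 is not settled, since Atp6v0d2 ranged from 0.099 to 0.671 in cxC26 scr and was above Oscar in only 2 tumors. In cxC26 IL6KOs1 its range overlapped that of Nfatc1, although it was higher in each of the 4 tumors.

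**Figure D3:**
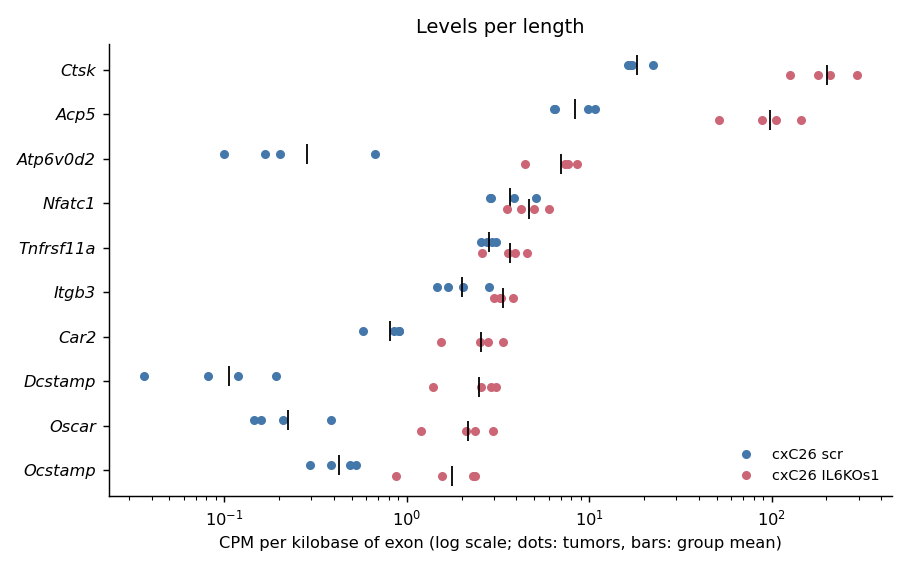
Level of each gene in CPM per kilobase of exon on a log axis, with a dot per tumor and a black bar at the group mean (blue cxC26 scr, red cxC26 IL6KOs1, 4 tumors each). Ctsk and Acp5 lead in both groups, and Dcstamp, Oscar, Atp6v0d2, Ocstamp and Car2 lie under 1 in every cxC26 scr tumor.

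The rule compared only the group means, so the spread inside a group was a separate observation. The second cxC26 IL6KOs1 tumor was the lowest of its group for 10 of the 10 genes, and it remained so for 10 when scaled by total reads. Over all tested genes this tumor was the lowest of its group for 27.9%. It lay below the mean of the other 3 by between 0.20 (Itgb3) and 1.22 (Ocstamp) on the log2 scale. The genes share the library, so they are not independent, and no test is given.

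Macrophage markers moved with this pattern. The same tumor was the lowest of its group for 8 of 11 macrophage markers, and relative to their mean it was the lowest for 5 of the 10 genes. The third cxC26 IL6KOs1 tumor was the highest of its group for 5 of the 10 genes and for 0 of the 11 macrophage markers. Over all tested genes this tumor was the highest for 17.0%, and it was so for 5 of 6 endothelial markers. Nothing is read from these counts. The summed level of the macrophage markers was highest in the first tumor, at 3131 CPM against 1769 to 1939 in the other 3.

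**Figure D4:**
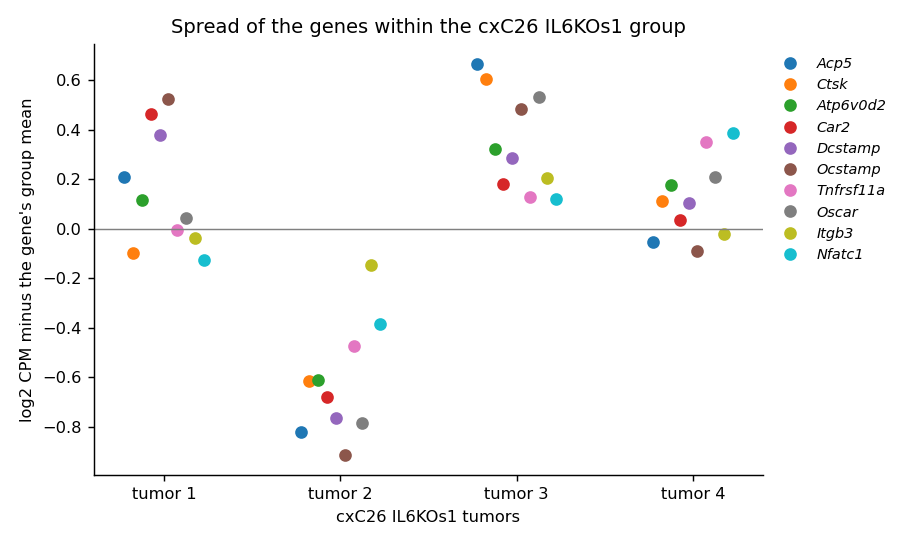
Deviation of each gene from its own mean over the 4 cxC26 IL6KOs1 tumors, in log2 CPM, with a colour per gene. All 10 points of tumor 2 lie below the mean, from -0.15 to -0.92, and all 10 points of tumor 3 lie above it, from 0.12 to 0.67.

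Macrophages and osteoclasts share precursors, so the macrophage markers were set beside the whole comparison. Of the 11 markers, 10 were called higher and 1, Mertk, lower in the cxC26 IL6KOs1 tumors. Over the alternative settings 7 to 10 were higher and 1 lower. In 8 of them every cxC26 IL6KOs1 tumor lay above every cxC26 scr tumor. The summed level of the markers was 920 to 1173 CPM in cxC26 scr and 1769 to 3131 CPM in cxC26 IL6KOs1. The most abundant were Lyz2, the lysozyme of myeloid cells, with a log2 difference of 1.20, and C1qa of the complement, with 1.02 (adjusted p = 0.000717 and 0.00305 from limma). The mean log2 level of the markers differed by 0.94 between the groups.

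Relative to that mean, 7 of the 10 genes had groups that did not overlap. The share of all tested genes under this scaling was not computed, so nothing is read from this count. The log2 difference then was 4.03 for Atp6v0d2, 3.77 for Dcstamp, 2.55 for Acp5, 2.48 for Ctsk, 2.37 for Oscar, 1.06 for Ocstamp and 0.69 for Car2. It was below 0 for Itgb3 (-0.16), Tnfrsf11a (-0.58) and Nfatc1 (-0.58), whose groups overlapped. This scaling was added after the data had been seen.

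Other cell types that could carry these genes were also read. Markers of lipid-laden macrophages gave 3 higher and 0 lower of 9, and Spp1, osteopontin, differed by 0.04 (adjusted p = 0.857 from limma). Of 10 markers of bone-forming cells, 3 were tested, of which 1 was higher and 1 lower. The most abundant, Dmp1 and Runx2, had 788 to 1547 and 867 to 1036 reads in cxC26 scr. In cxC26 IL6KOs1 they had 797 to 1169 and 657 to 758 reads (log2 differences -0.12 and -0.39, adjusted p = 0.606 and 0.00143 from limma). Sp7, the defining factor of bone-forming cells, had 0 or 1 read in every tumor. Platelet and megakaryocyte markers gave 0 calls in 4 tested, with a summed level of 26.9 to 43.0 CPM in cxC26 scr and 28.7 to 57.6 CPM in cxC26 IL6KOs1. The part of these cells in the members' differences was not tested.

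The ligands and receptors that start osteoclast formation came from a list of 7 genes, of which 4 were higher and 1 lower. Tnfsf11, which encodes RANKL, had 62, 50, 37 and 34 reads in cxC26 scr and 65, 26, 57 and 45 in cxC26 IL6KOs1. These ranges overlapped (log2 difference 0.09, adjusted p = 0.821 from limma). Its soluble decoy receptor osteoprotegerin, encoded by Tnfrsf11b, fell from 1576, 2146, 1978 and 1366 reads to 101, 141, 195 and 328 reads. Every cxC26 IL6KOs1 tumor was far below every control (log2 difference -3.27, SE 0.311, adjusted p = 1.88e-05 from limma).

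Csf1, which encodes the growth factor M-CSF, rose from 849, 927, 491 and 478 reads to 3572, 3711, 3004 and 2909 reads, a log2 difference of 2.37 (SE 0.184, adjusted p = 4.59e-06 from limma). Its receptor gene Csf1r rose by 1.25 and Il34, the other ligand of that receptor, by 0.56 (adjusted p = 2.09e-05 and 0.00321 from limma). Tnf, a cytokine that can promote osteoclast formation, rose by 1.55, with 18 to 20 reads in cxC26 scr and 40 to 97 in cxC26 IL6KOs1 (adjusted p = 0.000988 from limma). Traf6, the adaptor that binds RANK, differed by 0.22 (adjusted p = 0.121 from limma). The inputs were thus uneven, with M-CSF RNA higher, RANKL RNA within its spread and the decoy lower.

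The ITAM pathway, which gives the calcium signal, was higher in 8 of 9 genes and lower in 0. The adaptors Tyrobp, known as DAP12, and Fcer1g, the FcRγ partner of OSCAR, each rose by 1.32, and the kinase Btk rose most, by 1.68 (adjusted p = 0.000365, 6.84e-05 and 0.000189 from limma). Siglec15, an osteoclast receptor that pairs with DAP12, differed by 0.62 and did not pass (adjusted p = 0.0799 from limma). Macrophages use most of this list, and the second cxC26 IL6KOs1 tumor was the lowest of its group for 7 of the 9 genes.

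Of 8 calcineurin and other NFAT genes, 3 were higher and 0 lower. Rcan1, a calcineurin inhibitor that NFAT itself induces, rose by 0.52 with overlapping groups (adjusted p = 0.0323 from limma). The most abundant of them, Nfat5 and Ppp3r1, differed by -0.14 and -0.22 (adjusted p = 0.360 and 0.0784 from limma). Without the third cxC26 scr tumor only 1 of the 8 was higher and 1 was lower. Of 16 transcription factors that favour osteoclasts, 4 were higher and 3 lower. Spi1, which encodes PU.1, rose by 1.48 (adjusted p = 9.17e-05 from limma), while Jun, the most abundant, differed by -0.09 (adjusted p = 0.472 from limma). Mitf fell by 0.75 and Junb by 0.35 (adjusted p = 0.001 and 0.0115 from limma).

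Of 5 factors that oppose osteoclast formation, 3 were higher and 0 lower. Among the higher genes were Irf8 (0.81) and Id1 (0.70), with adjusted p-values of 0.0333 and 0.00306 from limma. Bcl6 and Id2 differed by -0.0057 and 0.19 and did not pass (adjusted p = 0.985 and 0.361 from limma). Without a filter on low values only 1 of the 5 was higher. Factors on both sides of the pathway were therefore among the higher genes.

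Of 10 other genes linked to fusion, 2 were higher and 1 lower. Adam8, a membrane protease, rose by 0.94 and Adam12, a related protease, fell by 1.03 (adjusted p = 0.00418 and 0.00101 from limma). The abundant fusion-related genes Cd9 and Cd44 differed by -0.10 and 0.11 (adjusted p = 0.358 and 0.512 from limma). Dcstamp and Ocstamp lay farther from 0 than every gene of this list, which is a description only, since the members were selected on these tumors.

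Of 14 other resorption genes 13 were tested, and 7 were higher and 1 lower. Mmp9, a gelatinase abundant in osteoclasts, rose from 113, 156, 60 and 53 reads to 2792, 2340, 4935 and 3438 reads, with a log2 difference of 5.27 (SE 0.294, adjusted p = 6.72e-07 from limma). Slc9b2, an ion exchanger of osteoclasts, rose from 10, 8, 3 and 9 reads to 219, 120, 364 and 215 reads, and Ckb, brain-type creatine kinase, rose by 3.18. Slc9b2 was chosen after its values had been seen. Slc4a2, the exchanger that lets bicarbonate out of the osteoclast, fell by 0.38 (adjusted p = 0.00756 from limma), and Mmp14 and Rab7, the most abundant genes of this list, differed by -0.32 and 0.02 and did not pass (adjusted p = 0.0617 and 0.810 from limma).

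**Figure D5:**
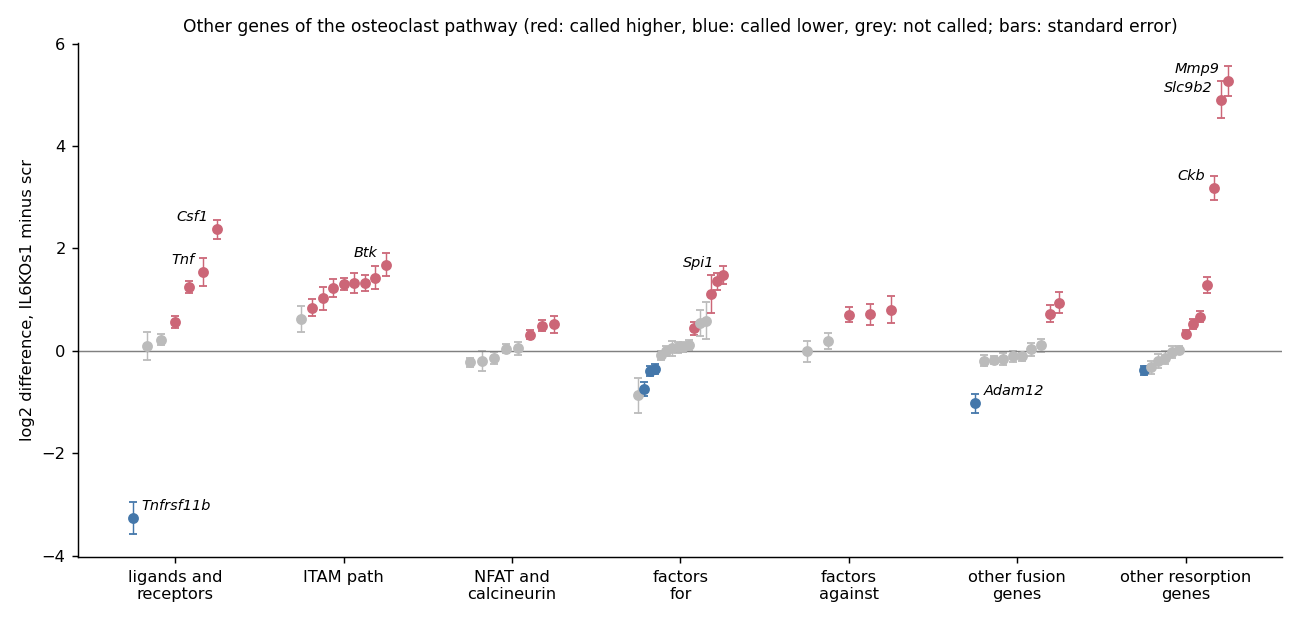
Log2 difference, cxC26 IL6KOs1 minus cxC26 scr, of the 68 tested genes of the 7 pathway lists, with standard errors from limma (4 tumors per group). Red genes were called higher (31), blue lower (6) and grey neither. Mmp9, Slc9b2 and Ckb lie above 3, as 5 of the members do, and Tnfrsf11b lies below -3.

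Close relatives of the members show how far the differences reached within gene families. Atp6v0d1, the d subunit found in most cells, had 1408, 1232, 834 and 889 reads in cxC26 scr and 1243, 1286, 1287 and 972 in cxC26 IL6KOs1. It differed by 0.21 (adjusted p = 0.251 from limma), whereas its relative Atp6v0d2 differed by 4.97. Of the 18 tested proton pump genes other than Atp6v0d2, 2 were higher and 2 lower, between -0.48 (Atp6v0a1) and 0.49 (Atp6v1a). The most abundant, Atp6v1b2 and Atp6ap2, differed by -0.08 and 0.09 (adjusted p = 0.582 and 0.653 from limma).

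Among 12 other tested cathepsins 5 were higher and 0 lower. Ctss, a cathepsin of antigen-presenting cells, rose by 1.21 (adjusted p = 0.00116 from limma), and Ctsl and Ctsb, the most abundant, differed by -0.33 and 0.15 (adjusted p = 0.125 and 0.357 from limma). The largest rise among the tested ones was 1.39, in Ctsw. Ctsg, with 61 reads in total, did not pass the filter, and without a filter its log2 difference was 2.63. The 3 other tested acid phosphatases differed by at most 0.43 (Acp6, adjusted p = 0.00928 from limma), and the most abundant, Acp2, by 0.0017.

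Of 12 other carbonic anhydrases 7 were tested, of which 1 was higher and 1 lower. Car5b, a mitochondrial enzyme, rose by 1.09 and Car12, a membrane enzyme, fell by 5.51, from between 356 and 491 reads to between 5 and 11. Without a filter on low values 2 were higher, and Car8, which had not passed the filter, differed by 3.54. Car3 differed by -0.03 (adjusted p = 0.964 from limma). The integrin chain Itgav, the partner of the β3 chain in osteoclasts, rose by 0.34 (adjusted p = 0.00402 from limma), and 4 of 6 other tested integrin β chains were higher and 0 lower, led by Itgb4 at 4.10. Itgb1 and Itgb5, the most abundant, differed by -0.0043 and 0.37 (adjusted p = 0.978 and 0.0085 from limma).

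The genes whose pattern over the 8 tumors was most like that of Acp5 were Rasgrf1, Ctsk and Kbtbd11. Likeness was measured as the root mean square difference between profiles centred on their own means, among the 12045 tested genes whose mean reached 1 log2 CPM, and it was 0.357, 0.365 and 0.417 on the log2 scale. For Ctsk the closest were Kbtbd11 (0.298), Ckb (0.342) and Acp5 (0.365). These profiles carry the group difference for which Acp5 and Ctsk were chosen, so their likeness follows in part from that choice and is no separate observation.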

How the data were processed

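RNA was measured in 8 mouse tumors, 4 cxC26 scr and 4 cxC26 IL6KOs1, grouped and numbered by their titles. The replicates were separate tumors. The authors aligned the reads to mm10 with HISAT2, counted them per gene with featureCounts and deposited log2 CPM values from limma-voom for 27179 genes. Versions of these tools, the annotation and the strand setting are not given in the sources used here, and the library kit does not mark strand. Each deposited log2 value is log2 of the reads plus 0.5 over the effective library size plus 1, times 1000000. Whole reads were recovered from it, all within 0.05 of a whole number or, above 100 reads, within 0.05% of the count. At high counts this tolerance lets any value pass, so the check bears on low counts only.

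The 13262 genes that reached 1 CPM in 4 or more tumors were fitted with limma 3.58.1 in R 4.3.3 (lmFit, then eBayes with a trend, no covariates, Benjamini-Hochberg over all tested genes, threshold 0.05), a procedure that was tested on simulated data. Fold changes are on that log2 scale, whose offset understates changes of low genes. The members and the gene lists were chosen with earlier results of these data known, and no p-value is given for members. Names were drawn from all members, the ligand, receptor and opposing-factor lists, close relatives, and in each other pathway or family list the 2 most abundant genes and the largest called rise and fall. Names in the cell type lists were drawn from their 2 most abundant genes, not all of which are printed, and other names are examples chosen after their values were seen. A gene that this rule names is not reported here. Alternatives were other filters, normalizations, pseudocounts and variance models, precision weights, the replicate block and each tumor left out. Positions and promoters came from RefSeq GRCm38.p6, and exon lengths and overlaps from GENCODE M21. Intervals of read ratios cover counting error only. Results of the endothelial, erythroid, fibroblast, dendritic, T cell and epithelial lists, in tested genes called higher and lower, were 0 and 0 of 6, 0 and 0 of 3, 1 and 1 of 5, 0 and 3 of 3, 3 and 0 of 3, and 2 and 0 of 2. In the same order the lists held 6, 5, 5, 8, 5 and 4 genes, and the rest did not pass the filter. The median log2 difference of the dendritic list was -1.89 over its tested genes but 0.44 over all 8.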

Additional observations from a re-analysis of the deposited data

Results flagged for a closer look

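Among 62 groups of 4 tumors, 6 held a tumor far from the other 3, where the gap to the nearest was large against the range of the group (Dixon's test at the 95% level), and chance alone gives about 3.1. Ctsk was high in the first cxC26 scr tumor, at 5.09 log2 CPM while the rest were at 4.63 to 4.70. Car2 was low in the fourth cxC26 scr tumor, at 0.48 log2 CPM against 1.05 to 1.13. The mean log2 CPM of the calcineurin and NFAT list was 6.22 in the first cxC26 scr tumor against 6.08 to 6.09, and that of the dendritic cell list was 5.94 in the same tumor against 5.76 to 5.77. The proton pump list was at 6.21 in the fourth cxC26 IL6KOs1 tumor against values of 6.35, and the platelet list was at 3.17 in the second cxC26 IL6KOs1 tumor against 1.95 to 2.08. What sets these tumors apart was not tested.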

How the results depend on the processing

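Of 119 values of counts and of the members' median under the alternatives, 116 stayed within 1.5 times the reported count or within the spread. When genes had to average 3 log2 CPM or more, 3 members were called higher and their median log2 difference was 0.78, because Atp6v0d2, Car2, Dcstamp, Ocstamp and Oscar were then not tested. A pseudocount of 1 CPM gave a median of 1.64. Of 175 log2 differences of single members, 162 stayed within the spread. Relative to the macrophage markers 3 changed sign, Itgb3 to -0.16 and Tnfrsf11a and Nfatc1 to -0.58 each. With each tumor left out in turn, 8 to 9 members were called higher, 0 lower, and the median was 2.48 to 2.94. Over all tested genes 2023 to 2540 were then higher and 2193 to 2674 lower, and 27 to 30 of the pathway genes were higher and 6 to 9 lower. Same-numbered tumors did not deviate together (correlations from -0.059 to 0.057), so the numbers do not pair them, and with the number as a replicate block 8 members, 31 pathway genes higher and 6 lower, and 2477 higher and 2688 lower genes overall were called. Depth limits the low members, since Dcstamp, Oscar and Atp6v0d2 rest on 16, 24 and 47 reads in the cxC26 scr group.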
